A study of Mus musculus with 36 samples.

Results

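Integrins are cell surface adhesion receptors built of 1 alpha and 1 beta chain, and 10 of their genes, Itgax, Itgam, Itgal, Itgb2, Itgb7, Itga4, Itga6, Itgav, Itgb1 and Itgb5, were followed from monocytes and macrophages of several origins to the alveolar macrophages that grew from them. The genes were chosen by name, with earlier results of these data known. Each was read from the probe set that carried its symbol alone, and where a gene had several such probe sets the brightest one was to be used. Every chain had 1 such probe set. The 10 chains are a small share of the 19938 genes measured, of which 12244 were bright enough to be tested, and all 10 chains were among those tested. Itgam also occurs in 3 probe sets shared with another symbol, which were not used.

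The study profiled 36 arrays in 9 groups of 4 biological replicates, all of C57BL/6 mice. Wild type CD45.1+CD45.2+ donors gave 4 populations before transfer: monocytes of adult bone marrow (6 to 12 weeks of age), monocytes of fetal liver (E15.5), macrophages of yolk sac (E12.5) and, from adults of 6 to 12 weeks, lavaged alveolar macrophages. Cells of each population were also given through the nose to neonate Csf2rb-/- recipients, which lack the shared beta chain of the GM-CSF receptor and in which the niche of alveolar macrophages is empty. The donor cells that had become alveolar macrophages were sorted from the lavage 6 weeks later, and are named after their donor population: AM-derived for alveolar macrophages, YS-derived for yolk sac, and FL-derived and BM-derived for the monocytes. Alveolar macrophages of wild type mice of 6 weeks were the control. All 4 transferred groups thus spent 6 weeks in a Csf2rb-/- lung, while the adult and the 6-week control cells did not. The AM-derived cells were alveolar macrophages already when transferred. The labels do not say whether an array pooled several animals.

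An integrin's alpha chain largely sets what it binds, and its beta chain carries most of the signal into the cell. Itgb2 pairs with Itgal to form LFA-1, with Itgam to form Mac-1 (complement receptor 3, CD11b/CD18) and with Itgax to form complement receptor 4 (CD11c/CD18). Monocytes and neutrophils are known for CD11b. Mouse alveolar macrophages are unusual among tissue macrophages in carrying much CD11c and little CD11b, and flow cytometry uses that pair of markers to tell them apart. Itga4 pairs with Itgb1 to bind VCAM-1 and fibronectin, and with Itgb7 to bind MAdCAM-1 in the gut. Itga6 makes laminin receptors with Itgb1. Itgav pairs with Itgb5 and other beta chains to bind vitronectin and related matrix proteins.

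The sequences before the starts of Itgax and Itgam are shown because these genes moved in opposite directions between precursors and alveolar macrophages. They come from the RefSeq promoter table of mouse build GRCm38.p6, which held 7 of the 10 chains, and cover 226 bases, from 250 to 25 bases before the table's start. Both lie on chromosome 7 on the plus strand, Itgax at chr7:128129300-128129525 and Itgam at chr7:128062390-128062615. Capitals mark GAGGAA, the core letters bound by the myeloid factor PU.1.
Itgax: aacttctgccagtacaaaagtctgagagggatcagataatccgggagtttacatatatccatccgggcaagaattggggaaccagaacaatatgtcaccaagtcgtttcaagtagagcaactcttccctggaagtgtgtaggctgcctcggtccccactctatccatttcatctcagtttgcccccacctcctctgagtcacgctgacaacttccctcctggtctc
Itgam: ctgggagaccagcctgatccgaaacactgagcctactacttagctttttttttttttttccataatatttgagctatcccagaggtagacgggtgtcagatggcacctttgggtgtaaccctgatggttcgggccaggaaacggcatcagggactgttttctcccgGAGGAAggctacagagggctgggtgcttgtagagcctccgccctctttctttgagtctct
The windows of Itgav and Itgb7 lie inside the RefSeq spans of their genes, not before them. GAGGAA occurred once in the Itgam window, 84 to 79 bases before the start, once in that of Itgav and not in that of Itgax. On either strand 21.0% of the 32851 promoters of the table hold it in a window of this length. TGANTCA, the AP-1 motif, occurred in the Itgax window 56 to 50 bases before the start, and 6.26% of promoters hold it. GGGCGG, bound by Sp1 and KLF factors, lay on the minus strand of the Itgam window 47 to 42 bases before the start, and 29.3% of promoters hold it. It had 3 matches in the Itgb5 window and 1 each in those of Itga4 and Itgb1. AGGTCA, a nuclear receptor motif held by 12.8% of promoters, and the E-box CACGTG, held by 5.20%, occurred in none of the 7 windows. No motif searched overlapped another in the Itgam window. A match describes the letters and is no measured binding site.

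The labelled cell types carried their markers. The mean of 10 alveolar macrophage markers was 10.62 to 11.02 on the log2 scale in each of the 24 alveolar macrophage arrays and 5.29 to 6.19 in the 12 precursor arrays, and that of 7 monocyte markers was 11.2 to 11.6 in both monocyte groups. For 10 yolk sac and tissue macrophage markers the mean was 10.61 to 10.76 in yolk sac macrophages and at most 6.41 in every other group. Of 12 neutrophil genes, 8 lay above the median of the table in bone marrow and in fetal liver monocytes, with list means of 6.47 to 7.84 and 7.13 to 7.75, against 4.14 to 4.23 in yolk sac macrophages and 4.38 to 4.83 in alveolar macrophages. In bone marrow and fetal liver monocytes the granule genes Camp, Mpo and Elane were at 10.99 and 9.47, 8.94 and 11.15, and 9.20 and 10.52, while Ly6g, a neutrophil surface marker, was at 3.10 and 3.19, below that median. Of 7 dendritic cell genes 4 lay above it in bone marrow monocytes, and of 5 erythroid genes 3 did in yolk sac macrophages. Of 5 megakaryocyte and platelet genes with a probe set 2 did there, led by Pf4 at 12.53. Of 4 B cell genes with a probe set 1, Cd79b, lay above it in each precursor group. Its means were 6.515 in bone marrow monocytes, 7.84 in fetal liver monocytes and 8.62 in yolk sac macrophages. None of 7 genes of eosinophils, mast cells and basophils lay above it in any group. One array stood apart: replicate 4 of the adult alveolar macrophages had the lowest mean correlation with its group (0.963) and the lowest value of its group for 9 of the 10 chains. Replicate 4 of the AM-derived cells was lowest of its group for 8 of the 10 chains. Its correlation with its group was 0.975.

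Itgax, the alpha chain CD11c, stood near the bottom of the scale in every precursor and near the top in every alveolar macrophage. Its log2 values were 4.11, 4.17, 4.39 and 4.32 in the 4 arrays of bone marrow monocytes, 4.24, 4.37, 4.11 and 4.36 in fetal liver monocytes, and 4.20, 4.27, 3.94 and 3.77 in yolk sac macrophages. None of these 12 values exceeded the median of the table, 4.62. In BM-derived cells they were 10.34, 10.65, 10.75 and 10.33, in FL-derived cells 10.16, 10.33, 10.35 and 10.06, and in YS-derived cells 10.27, 10.29, 9.83 and 10.73. The transferred cells of all 3 origins therefore lay in 1 narrow band, with no overlap with their precursors.

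The same band held the cells that were alveolar macrophages from the outset. Itgax was 10.65, 10.63, 10.48 and 9.72 in adult alveolar macrophages, 10.47, 10.53, 10.02 and 9.57 in AM-derived cells and 10.60, 10.44, 10.35 and 10.45 in the 6-week controls. All 24 alveolar macrophage arrays ranged from 9.57 to 10.75 and all 12 precursor arrays from 3.77 to 4.39. The array that stood apart, adult replicate 4, was low in its group but far above any precursor.

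The difference in Itgax between descendant and precursor was 6.27 ± 0.19 (SE, n = 4 and 4) on the log2 scale for bone marrow, 5.96 ± 0.19 for fetal liver and 6.23 ± 0.19 for yolk sac. With the median of the table in place of the dim precursor mean, these are at least 59.4-fold, 48.6-fold and 50.5-fold. The rise of Itgax and fall of Itgam are why these genes were studied, so both changes over transfer are described with no p. In these sorted populations a lower value can reflect fewer cells with the transcript or less RNA per cell, which cannot be told apart. The labels name no surface marker for the sorts, so the part of a gate on CD11c or CD11b in these levels was not tested. RMA compresses differences of dim probe sets.

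Itgam, the alpha chain CD11b, ran the other way. It was 8.66, 9.75, 9.49 and 9.23 in bone marrow monocytes, 8.23, 8.79, 8.68 and 8.96 in fetal liver monocytes, and 6.12, 5.95, 5.70 and 6.39 in yolk sac macrophages. All 24 alveolar macrophage arrays lay between 3.24 and 4.27, below the median of the table. The precursors thus spread over a wide range while the alveolar macrophages did not, and no precursor array came down to the level of any alveolar macrophage array.

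Itgam was lower after transfer by 5.58 ± 0.20 (SE) from bone marrow, 4.88 ± 0.20 from fetal liver and 2.65 ± 0.20 from yolk sac, which are at least 25.3-fold, 16.4-fold and 2.67-fold. Among all genes tested, 7.89% did not overlap between the 24 alveolar macrophage and the 12 precursor arrays, 5.21% of them higher in alveolar macrophages and 2.68% lower. Itgax and Itgam were 2 such genes, and the other 8 chains overlapped. The neutrophil list was, like Itgam, higher in both monocyte groups than in yolk sac macrophages. Within bone marrow monocytes, replicate 2 had the lowest list mean (6.47) and the highest Itgam (9.75). The part of neutrophil RNA in the Itgam levels was not tested.

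**Figure D1:**
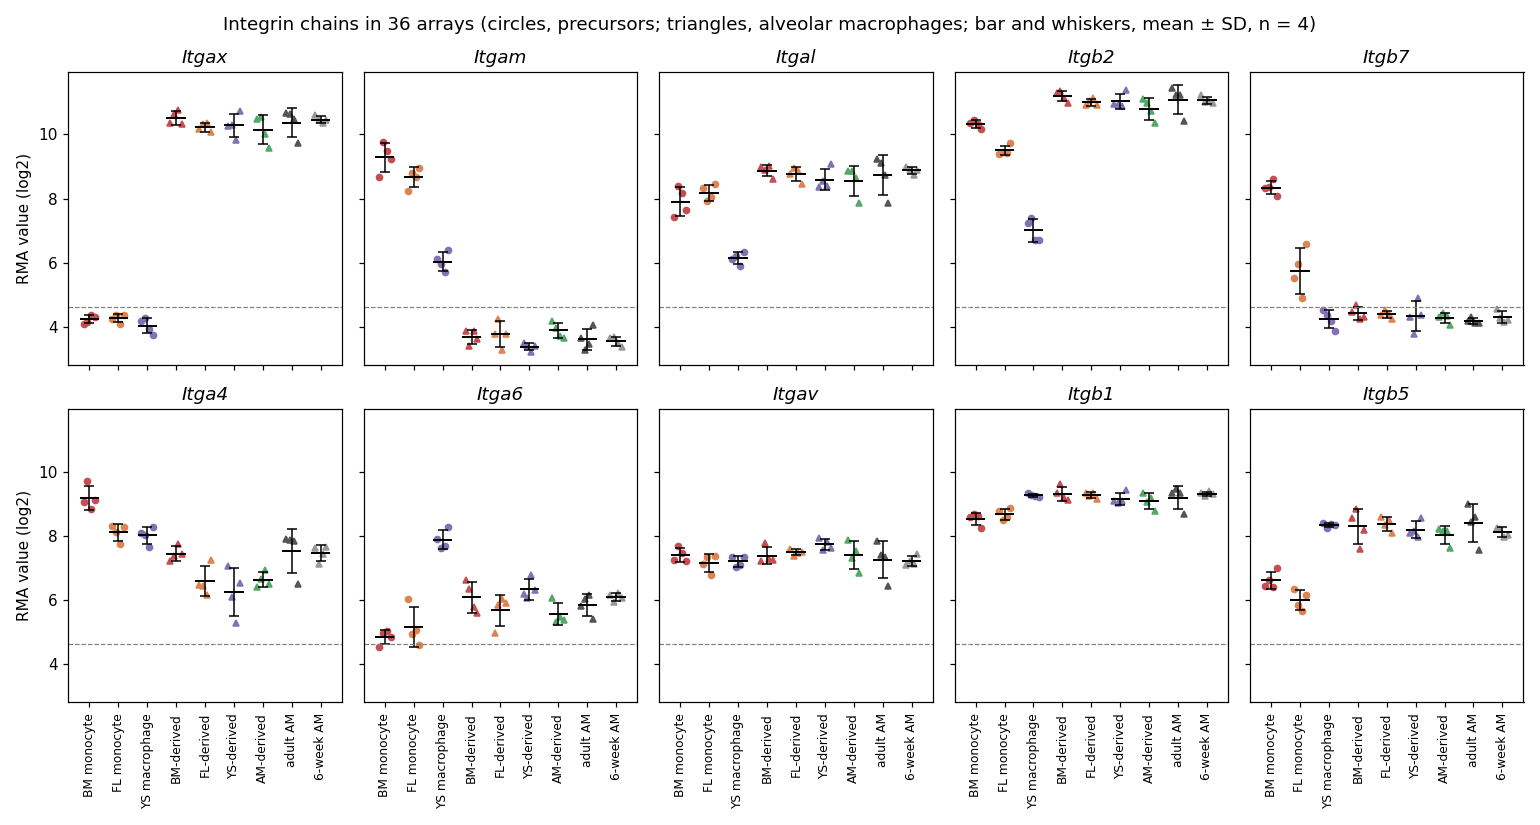
Log2 RMA values of the 10 chains in each of 36 arrays, by group, with the mean and SD of the 4 arrays of each group; the dashed line is the median of the table. Itgax is at 3.77 to 4.39 in precursors and 9.57 to 10.75 in alveolar macrophages, and Itgam runs the other way.

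Before transfer, the yolk sac macrophages stood further from the monocytes than the monocytes from each other. Fetal liver monocytes were lower than bone marrow monocytes in 4 of the 10 chains and higher in 0, where 19.5% of all genes tested were called (limma, Benjamini-Hochberg adjusted p under 0.05), 8.97% lower and 10.6% higher. Yolk sac macrophages differed from bone marrow monocytes in 8 chains, 3 higher and 5 lower, against 42.2% of all genes tested, 24.1% higher and 18.1% lower. They differed from fetal liver monocytes in 7 chains, 3 higher and 4 lower, against 33.1%, 18.6% higher and 14.5% lower. The chains higher in yolk sac macrophages were Itga6, Itgb1 and Itgb5 in both comparisons, and those lower in both were Itgam, Itgal, Itgb2 and Itgb7. Both comparisons share the yolk sac arrays. Itgax did not pass the test in any of them, with differences of 0.03, -0.20 and -0.22 and 95% intervals between -0.61 and 0.41.

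Compared with bone marrow monocytes, yolk sac macrophages had 3.24 ± 0.20 less Itgam on the log2 scale (9.46-fold, limma adjusted p = 4.0e-15), and compared with fetal liver monocytes 2.62 ± 0.20 less (6.16-fold, limma adjusted p = 1.1e-12). Between the monocytes the difference was 0.62 on the log2 scale, 1.54-fold, with overlapping arrays and a limma adjusted p of 0.0291. That call was lost without bone marrow replicate 2 (adjusted p = 0.143) or 3 (0.0867), without fetal liver replicate 1 (0.143), with arrays centred on their medians (0.0688) and in a fit of these groups alone (0.114).

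Itgb2 (CD18), the beta chain that Itgax, Itgam and Itgal all need to reach the surface, was present in every group and rose in all 3 transfers. It was 10.35, 10.44, 10.32 and 10.16 in bone marrow monocytes, 9.40, 9.44, 9.43 and 9.73 in fetal liver monocytes and 7.24, 7.41, 6.72 and 6.71 in yolk sac macrophages. Alveolar macrophage group means were 10.79 to 11.19. The 3 precursors formed a staircase with no overlap between neighbours, and after transfer the steps were gone.

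The rise of Itgb2 was 0.87 ± 0.18 (SE) from bone marrow (1.83-fold, limma adjusted p = 0.00015), 1.50 ± 0.18 from fetal liver (2.83-fold, adjusted p = 1.3e-08) and 4.00 ± 0.18 from yolk sac (16.0-fold, adjusted p = 2.0e-19). The YS-derived rise exceeded the BM-derived one by 3.13 ± 0.25 (interaction, limma adjusted p = 4.0e-12) and the FL-derived one by 2.50 ± 0.25 (adjusted p = 8.9e-10). Between the monocyte origins the rise differed by 0.63 (adjusted p = 0.114), which passed in a fit of the compared groups alone (adjusted p = 0.0273).

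Itgal (CD11a), the alpha chain of LFA-1 that binds ICAM-1, was 7.42, 8.40, 8.17 and 7.64 in bone marrow monocytes, 8.33, 7.92, 8.05 and 8.46 in fetal liver monocytes and 6.13, 6.21, 5.89 and 6.34 in yolk sac macrophages. The yolk sac arrays were all below the monocyte arrays, and the monocyte groups overlapped. Alveolar macrophage group means were 8.55 to 8.88. Itgal rose by 2.45 ± 0.24 (5.46-fold, limma adjusted p = 1.5e-10) from yolk sac and by 0.96 ± 0.24 (1.95-fold, adjusted p = 0.0014) from bone marrow. From fetal liver the difference was 0.58 ± 0.24 with an adjusted p of 0.0532. That value passed under 5 other settings: a stricter brightness filter (0.0413), quantile normalization (0.0392), a fit of these groups alone (0.0172), and without replicate 4 of the fetal liver monocytes (0.0408) or of the FL-derived cells (0.0348).

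The rest of the 10 chains were tested over transfer as well. Without Itgax and Itgam, 5 of 8 chains rose and 2 fell from bone marrow monocytes to BM-derived cells, where 36.4% of all genes tested were called, 20.3% higher and 16.1% lower. From fetal liver 3 rose and 2 fell, against 38.3% of all genes, 20.4% higher and 18.0% lower. From yolk sac 3 rose and 2 fell, against 42.9%, 19.6% higher and 23.2% lower. Itgb2 rose and Itga4 fell in all 3 transfers. The median difference over all 10 chains was 0.82 for bone marrow, 0.55 for fetal liver and 0.00 for yolk sac, and the medians over all genes tested were -0.02, -0.02 and 0.00.

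**Figure D2:**
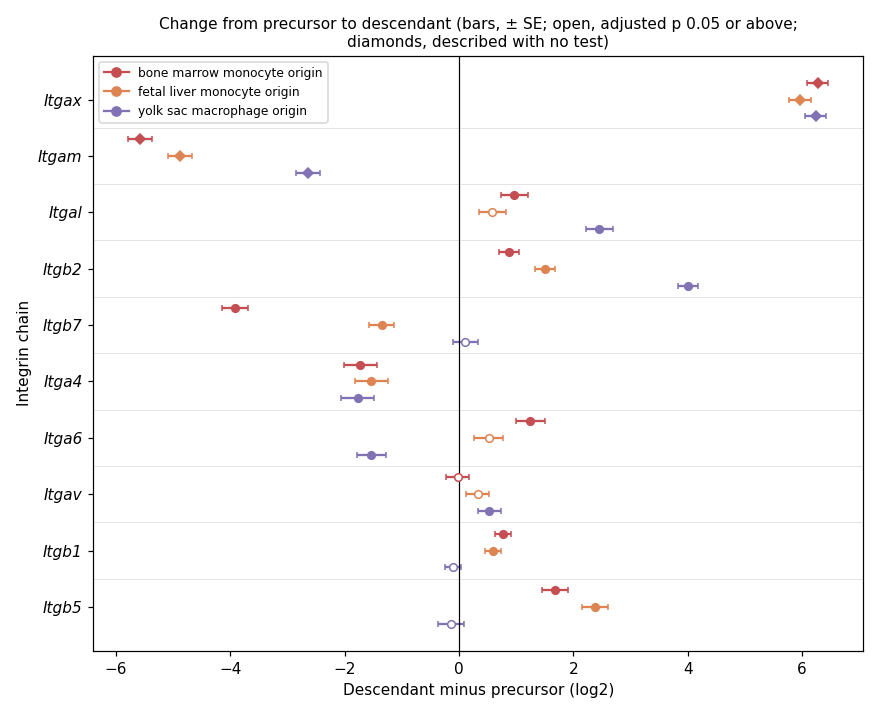
Difference of each chain between descendant and precursor on the log2 scale, with its SE, for the 3 origins; filled circles have an adjusted p under 0.05, open circles do not, and the diamonds of Itgax and Itgam are described with no test. Itgax is near 6 for every origin, while Itgam, Itgb2, Itgb7, Itga6 and Itgb5 are spread by origin.

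Itgb7 was highest in bone marrow monocytes. Its values there were 8.33, 8.37, 8.61 and 8.08. In fetal liver monocytes they were 5.54, 5.95, 4.90 and 6.59, a wide spread (SD 0.71), and in yolk sac macrophages 4.53, 4.38, 4.19 and 3.88, below the median of the table. The 3 groups did not overlap. All alveolar macrophage group means lay between 4.19 and 4.42, also below that median.

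Fetal liver monocytes had 2.60 ± 0.22 less Itgb7 on the log2 scale than bone marrow monocytes (6.06-fold, limma adjusted p = 8.0e-11). It fell by 3.92 ± 0.22 from bone marrow to BM-derived cells (at least 13.2-fold, adjusted p = 2.1e-16) and by 1.35 ± 0.22 from fetal liver (at least 2.18-fold, adjusted p = 5.6e-06). From yolk sac the difference was 0.11 ± 0.22 between 2 dim groups (adjusted p = 0.735). The falls from bone marrow and fetal liver differed by 2.57 ± 0.31 (interaction, limma adjusted p = 5.0e-07). It was the 1 chain of 10 called for a difference in change between the monocyte origins, where 9.94% of all genes tested were called. The dendritic cell list was also highest in bone marrow monocytes, with list means of 4.39 to 5.04 against 3.94 to 4.04 in fetal liver monocytes, and its part in the Itgb7 result was not tested.

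Itga4 (CD49d), the partner of Itgb7 and Itgb1, was 9.05, 9.70, 8.84 and 9.11 in bone marrow monocytes, 8.32, 8.11, 7.74 and 8.29 in fetal liver monocytes and 8.11, 8.04, 7.64 and 8.28 in yolk sac macrophages. Bone marrow monocytes stood above both fetal populations, which overlapped. Itga4 fell by 1.72 ± 0.29 from bone marrow (3.31-fold, limma adjusted p = 9.2e-06), by 1.53 ± 0.29 from fetal liver (2.89-fold, adjusted p = 4.8e-05) and by 1.77 ± 0.29 from yolk sac (3.41-fold, adjusted p = 4.7e-06). The interaction test called no difference between the 3 falls (adjusted p = 0.848, 0.947 and 0.734). The 95% intervals of these differences lay between -1.07 and 1.02.

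The group means of alveolar macrophages spanned 1.28 on the log2 scale for Itga4, against 0.22 to 0.78 for the other 9 chains. It was 7.23, 7.38, 7.75 and 7.44 in BM-derived cells and 7.64, 7.13, 7.44 and 7.65 in the 6-week controls. It was lower, and more variable, in YS-derived cells at 7.06, 6.11, 5.28 and 6.54. The FL-derived values were 6.48, 6.44, 6.16 and 7.25, and the AM-derived ones 6.42, 6.67, 6.95 and 6.52. Adult alveolar macrophages had 7.89, 7.87, 7.86 and 6.49, so that 1 array lay far below its group.

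YS-derived cells had 1.22 ± 0.29 less Itga4 on the log2 scale than the 6-week controls (2.32-fold, limma adjusted p = 0.0135) and 1.20 ± 0.29 less than BM-derived cells (2.30-fold, adjusted p = 0.0296). The first call was lost without YS-derived replicate 2 (adjusted p = 0.0505) or 3 (0.139), or without 6-week replicate 1 (0.0590) or 4 (0.0575). The second was lost without YS-derived replicate 2 (0.122) or 3 (0.246), or without BM-derived replicate 2 (0.0667), 3 (0.144) or 4 (0.0701). In fits of the compared groups alone the adjusted p was 0.0926 and 0.180. The differences of FL-derived (-0.88, adjusted p = 0.231) and AM-derived cells (-0.83, adjusted p = 0.255) from the controls were not called. For AM-derived cells a fit of the compared groups alone gave 0.0426. AM-derived cells differed by -0.89 from the adult cells they came from (adjusted p = 0.217). Without adult replicate 4 this was -1.23 (adjusted p = 0.0182), and without replicate 4 of both groups -1.19 (adjusted p = 0.0684).

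Itga6, a laminin receptor chain, was highest in yolk sac macrophages. It was 7.92, 7.62, 7.69 and 8.28 there, against 4.55, 4.97, 5.03 and 4.85 in bone marrow monocytes and 6.05, 4.95, 5.08 and 4.61 in fetal liver monocytes. This was 3.03 ± 0.26 above bone marrow monocytes (8.16-fold, limma adjusted p = 7.0e-12) and 2.71 ± 0.26 above fetal liver monocytes (6.52-fold, adjusted p = 1.4e-10). Alveolar macrophage means lay in between, from 5.56 to 6.34. In each monocyte group 3 of 4 arrays lay above the median of the table, so folds against these groups rest on dim values.

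Itga6 moved in opposite directions over transfer. It fell by 1.54 ± 0.26 from yolk sac (2.91-fold, limma adjusted p = 6.8e-06) and rose by 1.24 ± 0.26 from bone marrow (2.37-fold, adjusted p = 0.00018). From fetal liver it differed by 0.52 (adjusted p = 0.113), and without replicate 1 of the fetal liver monocytes by 0.81 (adjusted p = 0.00878) or without replicate 1 of the FL-derived cells by 0.76 (0.0196). The change from yolk sac differed from that of bone marrow by -2.78 ± 0.36 (interaction, adjusted p = 2.0e-07) and from that of fetal liver by -2.06 ± 0.36 (adjusted p = 4.1e-05). The erythroid list was also highest in yolk sac macrophages, with list means of 6.44 to 7.18 against at most 4.31 elsewhere. So was the megakaryocyte and platelet list, with 6.02 to 6.33 against at most 4.92 in every other group. The globin genes Hbb-y (10.44), Hba-x (9.04) and Hbb-bh1 (6.68) raised the first there, while Klf1 (3.76) and Alas2 (4.14) lay below the median of the table. Pf4 (12.53) and Ppbp (6.34) raised the second, while Itga2b (4.43), Itgb3 (3.57) and Gp9 (4.06) lay below that median. The yolk sac and tissue macrophage list was highest in yolk sac macrophages as well, with list means of 10.61 to 10.76 against at most 6.41 elsewhere. The part of other cells in the Itga6 values was not tested.

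Itgb5, which pairs with Itgav, was already at the alveolar macrophage level in yolk sac macrophages. Its values there were 8.40, 8.24, 8.36 and 8.35, and the alveolar macrophage group means were 8.04 to 8.40. In bone marrow monocytes it was 6.46, 6.62, 6.42 and 7.0 and in fetal liver monocytes 6.33, 5.85, 5.66 and 6.17. It rose by 1.67 ± 0.23 from bone marrow (3.19-fold, limma adjusted p = 3.1e-07) and 2.38 ± 0.23 from fetal liver (5.19-fold, adjusted p = 1.7e-10). From yolk sac the difference was -0.14, with a 95% interval of -0.61 to 0.32. Between the monocytes Itgb5 differed by -0.62 with arrays that did not overlap and an adjusted p of 0.0540. It passed with a stricter brightness filter (0.0398), quantile normalization (0.0450), a replicate block (0.0468), a fit of these groups alone (0.0484) and without fetal liver replicate 1 (0.0379).

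Itgb1 (CD29), the common partner of Itga4 and Itga6, was likewise higher in yolk sac macrophages and rose from both monocyte groups, with smaller steps. Unlike for Itgb5, the monocyte groups overlapped. Itgb1 was 8.59, 8.68, 8.62 and 8.25 in bone marrow monocytes, 8.76, 8.48, 8.59 and 8.86 in fetal liver monocytes and 9.32, 9.29, 9.24 and 9.20 in yolk sac macrophages. It rose by 0.77 ± 0.14 from bone marrow (1.71-fold, limma adjusted p = 3.9e-05) and by 0.60 ± 0.14 from fetal liver (1.51-fold, adjusted p = 0.00089), to alveolar macrophage means of 9.09 to 9.31. From yolk sac the difference was -0.11, with a 95% interval of -0.40 to 0.18.

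Itgav (CD51) varied least among the precursors after Itgax. Its group means ran from 7.17 in fetal liver monocytes to 7.74 in YS-derived cells, and the precursor means lay within 0.24 of each other. The YS-derived values were 7.94, 7.57, 7.82 and 7.61, against 7.34, 7.04, 7.10 and 7.36 in yolk sac macrophages. The rise of 0.53 ± 0.20 (1.44-fold) had a limma adjusted p of 0.0355. It was lost without yolk sac replicate 2 (adjusted p = 0.0935) or 3 (0.0801) and without YS-derived replicate 1 (0.102) or 3 (0.0753). From bone marrow and fetal liver Itgav differed by -0.03 and 0.32, which were not called.

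The change over transfer depended on the origin for most chains when yolk sac was compared with the monocytes. Against bone marrow, the yolk sac change was more positive for 4 chains (Itgam, Itgal, Itgb2 and Itgb7) and more negative for 3 (Itga6, Itgb1 and Itgb5), where 30.6% of all genes tested were called, 12.4% more positive and 18.2% more negative. Against fetal liver the same 4 and 3 chains were called, where 22.9% of all genes were, 9.48% more positive and 13.5% more negative. These comparisons share the yolk sac arrays. An interaction is the difference among descendants less the difference among precursors, so it draws on the precursor values given above. For Itgax the interactions were -0.31 (fetal liver against bone marrow), -0.04 (yolk sac against bone marrow) and 0.28 (yolk sac against fetal liver), with 95% intervals between -0.86 and 0.83. The fall of Itgam from yolk sac was smaller by 2.94 ± 0.29 than that from bone marrow and by 2.24 ± 0.29 than that from fetal liver. For fetal liver against bone marrow the Itgam interaction was 0.70, or 0.91 without bone marrow replicate 1. Itgam interactions are built from the falls for which the gene was chosen, so its place among the called chains is no separate support.

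Once in the lung, few chains were called between the cells. BM-derived cells differed from the 6-week controls in 0 of 10 chains by limma, with 0 at an unadjusted p under 0.05, where 1.31% of all genes tested were called. FL-derived cells differed in 0, with 1 unadjusted (Itga4), against 1.05%. YS-derived cells differed in 1 (Itga4), with Itgav a second chain at an unadjusted p, against 1.72%. AM-derived cells differed in 0, with 2 unadjusted (Itga4 and Itga6), against 1.07%. For Itgax the 4 differences from the controls were 0.06, -0.23, -0.18 and -0.31, in the order BM-, FL-, YS- and AM-derived, and the 95% intervals ran from -0.70 to 0.44. For Itgb2 they were 0.13, -0.06, -0.04 and -0.28, with intervals from -0.64 to 0.49.

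**Figure D3:**
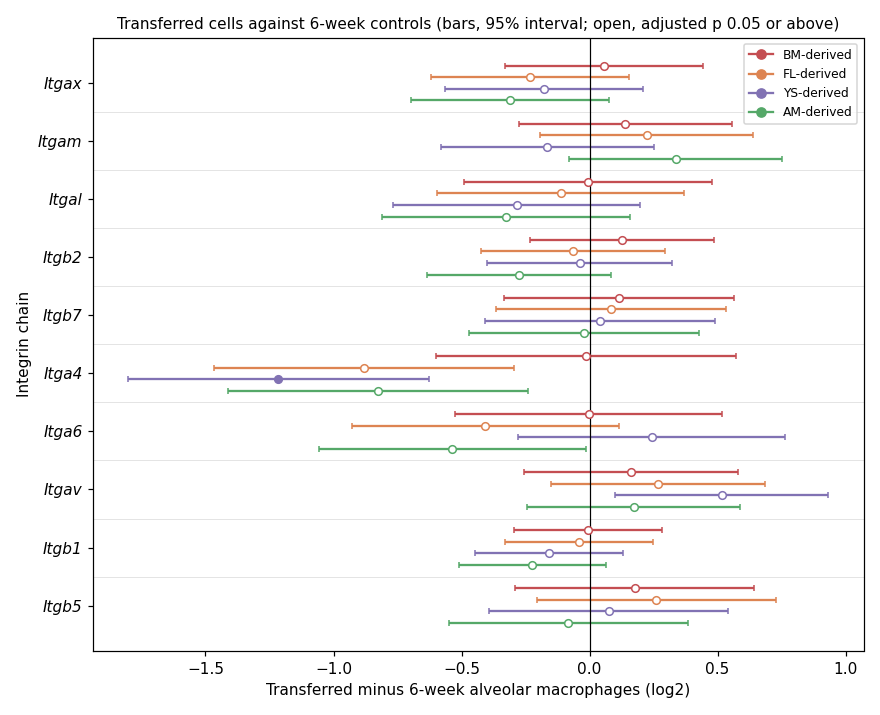
Difference of each chain between the 4 transferred groups and the 6-week control alveolar macrophages on the log2 scale, with 95% intervals; the filled point has an adjusted p under 0.05. Itga4 in YS-derived cells, at -1.22, is the 1 filled point, and the Itgax and Itgb2 intervals all include 0.

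Among the transferred groups, 1 chain was called in 6 comparisons. It was Itga4 between YS- and BM-derived cells, where 0.833% of all genes tested were called. FL- against BM-derived cells had 0 chains by limma and 1 at an unadjusted p under 0.05 (0.417% of all genes called), and YS- against FL-derived cells 0 and 1 (0.270%). Against AM-derived cells, BM-derived cells had 0 and 3 (0.425%), FL-derived cells 0 and 0 (0.335%) and YS-derived cells 0 and 2 (0.588%). AM-derived cells differed from adult alveolar macrophages in 0 chains, with 1 unadjusted (0.702% of all genes called). Adult and 6-week cells differed in 0, with 0 unadjusted (0.0163%).

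Ranked by group mean, the chains fell into distinct orders. For Itgax the 6 alveolar macrophage groups ran from BM-derived (10.52) through 6-week control (10.46), adult (10.37), YS-derived (10.28) and FL-derived (10.23) to AM-derived (10.15), and no neighbours among them passed the test. The step from AM-derived cells to fetal liver monocytes (4.27) was the break in that order. For Itgam the order was bone marrow monocytes (9.28), fetal liver monocytes (8.66), yolk sac macrophages (6.04) and then the 6 alveolar macrophage groups, whose means of 3.39 to 3.90 lay below the median of the table and have no order. For Itgal the step that passed was that from bone marrow monocytes (7.91) to yolk sac macrophages (6.14). For Itgb2 the alveolar macrophages stood above the precursors, which followed as bone marrow (10.32), fetal liver (9.50) and yolk sac (7.02).

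The genes with the pattern most like that of each chain were found by Pearson correlation of log2 values over the 36 arrays among all genes tested. The points share arrays and fall into clusters of precursors and alveolar macrophages, so the values are a description. For Itgax they were Car4 (0.996), F7 (0.996), Plet1 (0.996), Fabp1 (0.994) and Ly75 (0.994). Car4, a membrane carbonic anhydrase, had group means of 3.79 to 4.15 in precursors and 11.2 to 11.7 in alveolar macrophages. For Itgam they were Plac8 (0.985), Pstpip1 (0.985), Ptpn22 (0.982), Rgs18 (0.982) and Ms4a4c (0.980). Plac8 had 12.3 in bone marrow monocytes, 11.9 in fetal liver monocytes, 6.80 in yolk sac macrophages and 3.21 to 3.83 in alveolar macrophages, the same staircase as Itgam.

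For the other chains the likeness was highest for Itgb2, with Anxa2 (0.985), Niban1 (0.981) and Diaph1 (0.981), and lowest for Itgav, with Man2b1 (0.665), Lrrc75a (0.663) and Lasp1 (0.643). Itgal was nearest to Myadm (0.965), Pfkp (0.963) and Msn (0.961), and Itgb7 to Ndrg1 (0.967), Clec2i (0.960) and Cyp39a1 (0.957). Itga4 was nearest to Prkd3 (0.856), Irf8 (0.835) and Ythdf3 (0.831), and Itga6 to Ap2m1 (0.893), Gprc5c (0.878) and Rab3il1 (0.876). Itgb1 was nearest to Sirpa (0.912), Ctnnd1 (0.908) and Hsp90b1 (0.906), and Itgb5 to Slc23a2 (0.946), the mannose receptor gene Mrc1 (0.942) and Tpp1 (0.937).

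Of 17 further integrin chains with a probe set, 8 were bright enough to be tested. Over transfer 2 rose and 0 fell from bone marrow, 1 rose and 0 fell from fetal liver, and 1 rose and 1 fell from yolk sac, where 36.4%, 38.3% and 42.9% of all genes tested were called. Their median differences were -0.08, 0.02 and 0.12, close to the medians of all genes given above. For groups dimmer than the table's median, a fold bound against that median follows the fitted log2 difference. Itga5, the alpha chain of the classical fibronectin receptor, rose by 1.25 ± 0.20 from bone marrow (limma adjusted p = 4.8e-06) and 0.88 ± 0.20 from fetal liver (adjusted p = 0.00056). Itgad, a further partner of Itgb2, rose by 0.84 ± 0.26 from bone marrow (at least 1.54-fold, adjusted p = 0.011). Itga9 was 7.13 in yolk sac macrophages and between 3.45 and 3.69 in every other group, and fell by 3.44 ± 0.15 from yolk sac (at least 5.66-fold, adjusted p = 2.5e-19). The erythroid and platelet lists were highest in the same group, through the genes named above for Itga6. So was the yolk sac and tissue macrophage list. Itga2b rose by 0.32 ± 0.12 from yolk sac (at least 1.10-fold, adjusted p = 0.034). Against the 6-week controls 1 of the 8 was called, Itga1 in BM-derived cells, which was 1.55 ± 0.29 higher (at least 2.19-fold, adjusted p = 0.0017). Of all genes tested, 1.31% were called in that comparison, and 1.05%, 1.72% and 1.07% for FL-, YS- and AM-derived cells.

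Of 21 listed ligands of integrins, 19 had a probe set and 10 were tested. From bone marrow 4 rose and 3 fell (36.4% of all genes called), from fetal liver 5 and 2 (38.3%), and from yolk sac 4 and 3 (42.9%). Their median differences were 0.36, 0.72 and 0.08. F11r (JAM-A, a ligand of LFA-1) rose by 4.94 ± 0.23 from bone marrow, 3.48 ± 0.23 from fetal liver and 5.37 ± 0.23 from yolk sac (limma adjusted p = 1.7e-14 or less in each), the last at least 31.3-fold. Cdh1 (E-cadherin, a ligand of the Itgae and Itgb7 pair) rose by 3.46, 3.14 and 3.45. Icam2, which binds LFA-1, fell by 2.49 from bone marrow and fell by 2.05 from fetal liver, and Thbs1 (thrombospondin) fell by 5.62 from fetal liver, at least 45.4-fold.

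Fn1 (fibronectin), the ligand of the Itga4 and Itgb1 pair, did not follow 1 direction. It was 11.3 in bone marrow monocytes, 8.64 in fetal liver monocytes and 5.98 in yolk sac macrophages. It fell by 3.91 ± 0.40 from bone marrow (limma adjusted p = 6.1e-10) and rose by 3.15 ± 0.40 from yolk sac (adjusted p = 4.7e-08). Against the 6-week controls 3 of the 10 ligands were called. Per comparison, 3 were called in BM-, 2 in FL-, 2 in YS- and 3 in AM-derived cells. Of all genes tested, 1.31%, 1.05%, 1.72% and 1.07% were called in these comparisons. Mfge8, which binds Itgav pairs, was higher in BM-, FL-, YS- and AM-derived cells by 2.54, 2.59, 2.89 and 2.27, each ± 0.26 (adjusted p = 1.3e-06 or less), and 2.31 ± 0.26 higher in AM-derived than in adult cells (adjusted p = 1.7e-06). Cdh1 was higher by 0.96, 0.74, 1.02 and 0.78 (adjusted p = 0.0029, 0.045, 0.00089 and 0.026). Fn1 was lower by 2.83 ± 0.40 in BM-derived (adjusted p = 2.4e-05) and 3.72 ± 0.40 in AM-derived cells (adjusted p = 6.1e-07). The mean of 6 lung epithelium markers was 4.21 to 4.61 in precursor arrays and 4.74 to 5.91 in alveolar macrophage arrays, highest in adult replicate 4. It was 5.18 to 5.49 in the 6-week controls. In BM-, FL-, YS- and AM-derived cells it was 4.89 to 5.33, 4.92 to 5.235, 4.74 to 5.08 and 5.16 to 5.62. For Epcam, Scgb1a1 and Sftpc all alveolar macrophage means lay above every precursor mean, and for Sftpb, Sftpa1 and Krt18 they did not. Cdh1 is also an epithelial gene, and the part of epithelial RNA in its values was not tested.

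**Figure D4:**
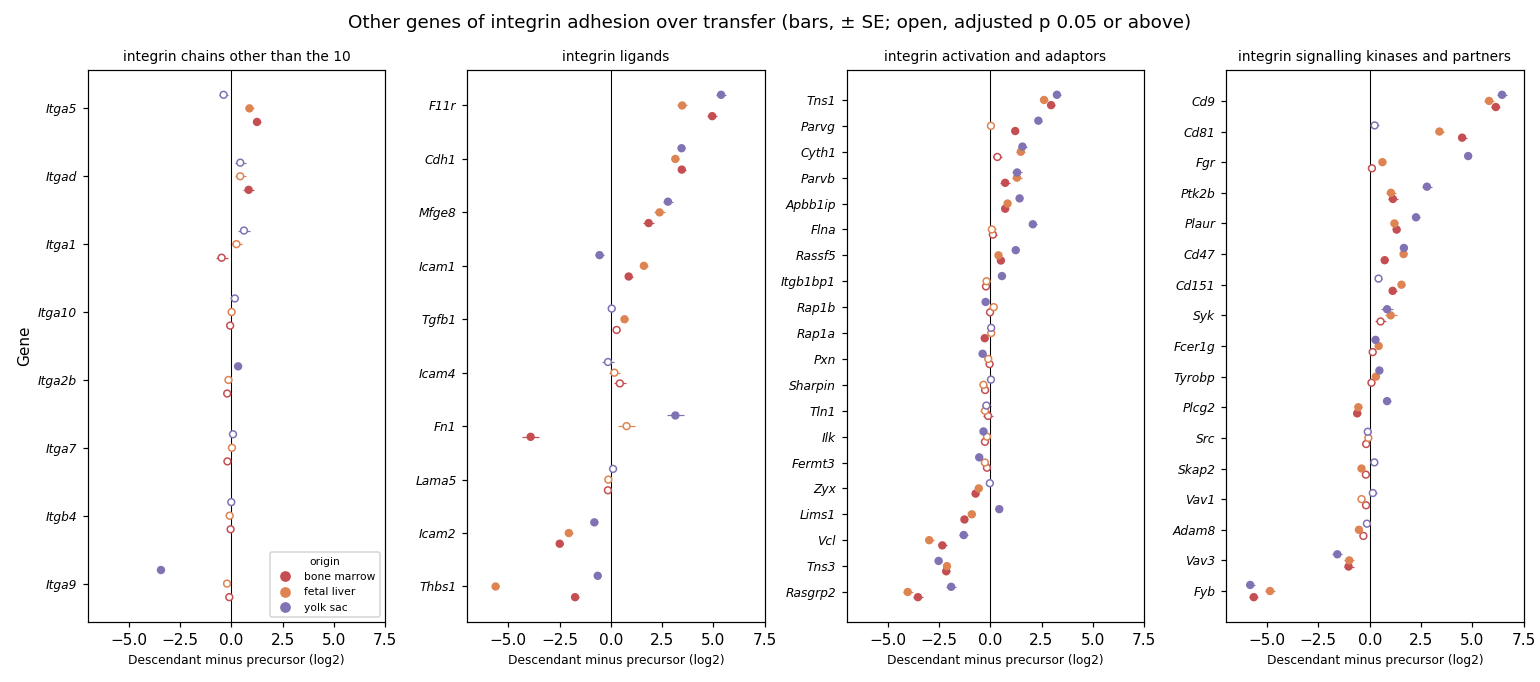
Difference between descendant and precursor on the log2 scale, with its SE, for the 55 tested genes of 4 lists of integrin adhesion, by origin; filled points have an adjusted p under 0.05. Cd9, F11r and Tns1 lie far to the right and Fyb, Rasgrp2 and Tns3 to the left for each origin, while Fn1 and Itga9 are spread by origin.

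Of 20 tested genes that activate integrins or link them to actin, 5 rose and 6 fell from bone marrow (36.4% of all genes called), 5 and 5 from fetal liver (38.3%), and 9 and 7 from yolk sac (42.9%). Their median differences were -0.14, -0.13 and 0.04. Rasgrp2 (CalDAG-GEFI), which switches on Rap1 ahead of integrin activation, fell by 3.53 ± 0.23 from bone marrow and 4.02 ± 0.23 from fetal liver (limma adjusted p = 1.6e-14 and 5.6e-16), which are at least 11.5-fold and 12.8-fold. The tensins, adaptors of beta chain tails, moved apart: Tns1 rose by 2.97, 2.62 and 3.25 and Tns3 fell by 2.15, 2.11 and 2.52 from bone marrow, fetal liver and yolk sac. Vcl (vinculin) fell by 2.34 from bone marrow and by 2.98 from fetal liver (at least 7.09-fold). From yolk sac Parvg rose by 2.34 and Apbb1ip (RIAM) by 1.43. By limma 0 of the 20 were called between a transferred group and the 6-week controls, where 1.05% to 1.72% of all genes tested were called. An unadjusted p under 0.05 was found for 5 in any of the 4 comparisons.

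Of 17 tested kinases and surface partners, 6 rose and 3 fell from bone marrow (36.4% of all genes called), 10 and 5 from fetal liver (38.3%), and 9 and 2 from yolk sac (42.9%). Their median differences were 0.11, 0.44 and 0.43. The tetraspanin Cd9 rose by 6.15 ± 0.22, 5.82 ± 0.22 and 6.45 ± 0.22, to group means of 12.46 to 12.61 in alveolar macrophages. Cd81, another tetraspanin, rose by 4.51 and 3.40 from the monocytes. Fyb (ADAP), an adaptor of inside-out signalling to LFA-1, fell by 5.65, 4.86 and 5.83, each ± 0.22 (limma adjusted p = 7.5e-19 or less), which are at least 20.2-fold, 11.3-fold and 23.1-fold. Fgr, a Src family kinase downstream of Itgb2, rose by 4.80 ± 0.15 from yolk sac (at least 26.0-fold, adjusted p = 2.8e-23), where its precursor mean was 4.52 against 9.28 in bone marrow monocytes. Plaur, the urokinase receptor, rose by 1.31 from bone marrow and 2.26 from yolk sac, and Cd47 by 1.65 from fetal liver. By limma 0 of the 17 were called between a transferred group and the 6-week controls, where 1.05% to 1.72% of all genes tested were called. Of the 17, 0 had an unadjusted p under 0.05.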

How the data were processed

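The table the authors deposited holds log2 values for 35556 probe sets. The submitters' processing notes name RMA as the normalization and give no version of it. RMA puts the probes of all arrays on 1 distribution, so a shift shared by most genes is removed, and small differences of dim probe sets are compressed. Array medians were 4.54 to 4.73. Cells were sorted by flow cytometry and the RNA was amplified before hybridisation, per the labels. Probe sets with 1 symbol (21789) were named through the platform annotation and RefSeq (GRCm38.p6). Those with several symbols (1621) or none (12146) were not used.

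Genes above the table's median (4.62) in at least 4 arrays were tested. In R 4.3.3, limma 3.58.1 fitted the 9 group means jointly over the 36 arrays. P-values were adjusted by Benjamini-Hochberg within each of 18 contrasts and 3 interactions over 12244 genes, and a gene was called below 0.05. Levels are means with SD. A fold against a mean under the table's median uses that median and is a lower bound. Tested on simulated data for BM-derived cells against bone marrow monocytes, the fit recovered 93% of genes changed by 1 log2 unit and 99% of those changed by 2. There were 10 false calls. For YS- against BM-derived cells it recovered 90% and 100%, with 6 false calls. Each simulation changed 200 of 12244 genes, far fewer than the 4453 called in the data for BM-derived cells against their monocytes. The number of arrays limits the precision. Titles give biological replicates, without saying whether these are separate animals, so p-values measure the spread between these samples. No scan or batch is given in the sources used here. The members, lists and tests were chosen with earlier results of these data known. All 10 chains are named, with the 5 genes (Itgax, Itgam) or 3 genes nearest in pattern, leaving out predicted genes, and per pathway list up to 4 called genes with the lowest adjusted p per contrast. The alternatives were other filters, scalings, fits and left-out arrays.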

Additional observations from a re-analysis of the deposited data

Results flagged for a closer look

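In 6 of 90 sets of 4 arrays (10 chains in 9 groups) 1 array lay far from the other 3 by Dixon's criterion, and chance gives about 1 in 20. Itga4 in adult alveolar macrophages was 6.49 in replicate 4 and 7.86 to 7.89 in the others. Itgav in BM-derived cells was 7.79 in replicate 2 and 7.23 to 7.27 in the others. Itgb5 in AM-derived cells was 7.62 in replicate 4 and 8.14 to 8.22 in the others. Replicate 4 was the high one for Itgb2 in fetal liver monocytes (9.73 against 9.40 to 9.44), and in YS-derived cells for Itgb2 (11.39 against 10.87 to 10.94) and Itgb1 (9.44 against 9.02 to 9.09).

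The change over transfer differed between origins in 15 of 30 interaction tests (limma adjusted p under 0.05). Of all genes tested, 9.94%, 30.6% and 22.9% were called in these 3 interactions, in the order below. The third is the second less the first, so the 30 tests are not separate. Descendant means of Itgam and Itgb7 lay below the median of the table, so their values draw mainly on precursor levels. Those of Itgam are also built from the falls for which it was chosen. For fetal liver less bone marrow it was Itgb7 at 2.57. For yolk sac less bone marrow the values were 2.94 for Itgam, 1.49 for Itgal, 3.13 for Itgb2, 4.03 for Itgb7, -2.78 for Itga6, -0.88 for Itgb1 and -1.82 for Itgb5. For yolk sac less fetal liver they were 2.24 for Itgam, 1.87 for Itgal, 2.50 for Itgb2, 1.46 for Itgb7, -2.06 for Itga6, -0.70 for Itgb1 and -2.52 for Itgb5. Itga6 fell from yolk sac and rose from bone marrow, so these changes over transfer had opposite signs.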

How the results depend on the processing

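No called result changed direction under any alternative run. Of all 3660 single-chain values under an alternative, called or not, 128 differed in sign from the reported value, in 48 of 210 results. Each of the 128 was uncalled in both fits and lay within 0.24 of 0 on the log2 scale as reported. Without a brightness filter, with an intensity trend in the variance prior and with the mean over a gene's probe sets, each of the 210 results on the chains stayed on its side of the threshold; each chain has 1 probe set, so the last could move only the adjustment. Centring arrays on their medians shifted the tested genes of an array by a median of up to 0.11, and quantile normalization by up to 0.0719. The first ended 1 call and the second added 3. The count of chains called changed by over 1.5 times in fits of the compared groups alone: from 1 to 0 for YS-derived cells against the 6-week controls, from 0 to 1 for AM-derived cells against them, from 1 to 0 for YS- against BM-derived cells, and from 1 to 2 for the interaction of fetal liver and bone marrow. Leaving out 1 replicate gave counts of 0 to 1 for AM-derived against adult cells, 0 to 1 for YS-derived cells against the controls, 0 to 1 for YS- against BM-derived cells and 1 to 2 for that interaction. Leaving out both replicates 4 of the adult and AM-derived groups, an alternative chosen after seeing the data, changed 0 of 60 calls. Itgav in the yolk sac interaction with bone marrow passed with quantile normalization alone (0.70, limma adjusted p = 0.0426). The causes were not tested.

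Samples share a replicate number, and the main fit did not pair them by it. Same-numbered arrays of BM-derived cells and bone marrow monocytes correlated by 0.0284 to 0.127 in their deviations from the group means, each best with its own number. For AM-derived against adult cells the highest was 0.419, and the mean was 0.203 against -0.0643 for other numbers. In 0 of 18 contrasts did every pair exceed 0.1, the limit set for pairing. With a replicate block 1 of 210 calls changed, Itgb5 between the monocytes (-0.62, limma adjusted p = 0.0468). The calls over all genes went from 2390 to 2382 there and from 4453 to 4419 for BM-derived cells.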
